A study of Caenorhabditis elegans with 2 samples.

Results

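The regions described here are peaks of PQM-1 that lie in promoters belonging to several genes at once. They come from chromatin immunoprecipitation and sequencing of whole late embryos of the nematode Caenorhabditis elegans, taken 2 h after the eggs had been bleached for synchronization. Both samples are biological replicates of 1 group, the hermaphrodite strain OP201, which carries the integrated transgene wgIs201 for PQM-1 tagged at its C terminus with GFP-FLAG, in the background unc-119(tm4063) III, and chromatin was precipitated with an antibody against GFP. No untagged or wild-type group is analysed here, so tagged PQM-1 is compared between places in the genome and not between conditions. The samples are whole embryos, so binding in few cells and weak binding in many cells cannot be told apart.

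The members were chosen by the authors' pooled peak signal and by position. Among the 2000 strongest pooled regions in build ce11, a region was kept if its summit lay from 1000 bp upstream to 200 bp downstream of transcript starts of 2 or more protein-coding genes and more than 200 bp from any rRNA, tRNA, snRNA or snoRNA gene. This gave 304 regions of the 2000, called shared-promoter peaks. In 282 of them (92.8%, exact 95% interval 89.2 to 95.4) the genes lay on both strands, which makes a divergent promoter, and in 22 all genes lay on 1 strand. Of the other regions, 729 had their summit in the promoter of exactly 1 protein-coding gene and are called one-gene promoter peaks, 723 lay outside promoters and 244 lay beside a small RNA gene. The signal values are used only to rank or describe regions, since they chose the members. By its name the pooled list holds background as well as peaks. Of the 304 shared-promoter peaks 164 lay below the authors' list of 669 reproducible regions.

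PQM-1 is a zinc finger transcription factor that acts, like the FOXO factor DAF-16, downstream of insulin signalling. The DAF-16 associated element TGATAAG is the sequence PQM-1 is best known for. A divergent promoter is a stretch of DNA between the starts of a pair of genes transcribed away from each other, so that a factor bound there sits upstream of both. In the compact worm genome neighbouring genes often begin close to each other, and genes on the same strand may also be joined in operons.

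The letters around the summit are the measure that the rule did not use, so examples are shown before the counts. All are from the plus strand of ce11 as given by RefSeq, written 5′ to 3′, and hold no annotated exon of a protein-coding gene. Capitals mark TGATAAG, the Sp1-like box CCGCCC and the 8-letter words CTAGGCCA, GAGACGCA, AAACGCGC, GCGCTCCA, AAAATAAA and AAGTGCGC, each on either strand, so that TGATAAG on the minus strand reads CTTATCA. The first 3 are examples of the exceptions among the members: peaks that hold TGATAAG within 100 bp of the summit, the last of them a same-strand peak whose window holds a stretch repeated elsewhere in the genome.
nlt-1/ZK892.3 (chrII:10001181-10001381): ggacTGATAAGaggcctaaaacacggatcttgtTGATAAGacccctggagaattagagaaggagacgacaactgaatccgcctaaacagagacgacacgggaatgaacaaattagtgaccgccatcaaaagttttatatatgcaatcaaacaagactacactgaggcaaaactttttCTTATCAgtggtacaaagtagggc
asp-12/asp-6 (chrV:8269027-8269209): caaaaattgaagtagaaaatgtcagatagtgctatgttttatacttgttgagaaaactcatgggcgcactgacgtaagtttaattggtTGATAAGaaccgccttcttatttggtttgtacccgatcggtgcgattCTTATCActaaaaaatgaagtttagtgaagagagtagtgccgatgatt
trm-2A/adh-5 (chrV:910737-910887): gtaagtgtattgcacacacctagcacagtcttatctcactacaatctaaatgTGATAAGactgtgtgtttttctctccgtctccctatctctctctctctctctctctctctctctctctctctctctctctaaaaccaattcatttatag

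The next 6 are strong divergent peaks without TGATAAG in the summit window, which is how most members looked. They are shown for the marked letters near their summits: 3 hold CCGCCC, 3 hold one of the 8-letter words, and that of rpl-15 has none of the marked patterns in the stretch shown. The summit window of K10D2.5/prp-19/emb-1 also holds a stretch repeated elsewhere in the genome.
tasp-1/K01G5.10 (chrIII:10759187-10759306): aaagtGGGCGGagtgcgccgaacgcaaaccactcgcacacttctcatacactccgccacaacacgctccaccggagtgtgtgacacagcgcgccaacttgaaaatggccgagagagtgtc
K10D2.5/prp-19/emb-1 (chrIII:5172625-5172719): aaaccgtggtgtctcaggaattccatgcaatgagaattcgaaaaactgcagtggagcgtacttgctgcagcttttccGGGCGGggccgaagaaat
atx-2/ecps-1 (chrIII:10461257-10461377): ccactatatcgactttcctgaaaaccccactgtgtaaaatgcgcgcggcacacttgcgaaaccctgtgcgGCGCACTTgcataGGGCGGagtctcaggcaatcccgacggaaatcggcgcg
Y41D4A.4/Y41D4A.6 (chrIV:1745707-1745827): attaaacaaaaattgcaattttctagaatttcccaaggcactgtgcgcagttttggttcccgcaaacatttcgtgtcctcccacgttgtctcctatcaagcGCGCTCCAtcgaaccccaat
W03C9.5/rab-7/mex-1 (chrII:11967657-11967777): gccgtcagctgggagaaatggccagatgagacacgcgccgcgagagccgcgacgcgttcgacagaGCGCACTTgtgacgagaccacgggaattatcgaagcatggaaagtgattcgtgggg
rpl-15/K11H12.8 (chrIV:654867-654987): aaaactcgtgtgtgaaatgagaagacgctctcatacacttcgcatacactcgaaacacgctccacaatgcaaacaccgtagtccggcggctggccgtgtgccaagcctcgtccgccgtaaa

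The last pair are the strongest same-strand peaks, which lie on different chromosomes and are shown because they are nearly the same sequence. Their summit windows of 201 bp could be aligned over 193 bp, of which 190 were identical (98.4%).
Y62F5A.12/mdt-8 (chrII:11534737-11534857): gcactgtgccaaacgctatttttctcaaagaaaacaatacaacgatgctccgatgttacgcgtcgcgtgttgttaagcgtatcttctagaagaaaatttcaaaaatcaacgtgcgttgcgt
C26B2.7/elpc-4 (chrIV:8015950-8016070): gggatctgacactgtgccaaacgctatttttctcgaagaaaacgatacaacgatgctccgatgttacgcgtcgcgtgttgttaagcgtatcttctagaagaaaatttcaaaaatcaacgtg

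Shared-promoter peaks stood high in the list that was used to choose them. Their pooled signal ran from 55.1 to 311 with a median of 78.1, against a median of 70.5 for one-gene promoter peaks, whose strongest reached 756. Of the 500 strongest regions 100 were shared-promoter peaks, and the next blocks of 500 ranks held 82, 66 and 56. The reproducible list of the authors holds 669 regions, the same as the strongest pooled ones, and among them were 140 of the 304 shared-promoter peaks (46.1%) and 227 of the 729 one-gene promoter peaks (31.1%). A q-value of at most 0.01 was given by the authors to 216 shared-promoter peaks (71.1%), against 62% of all 2000 regions. Peaks beside small RNA genes stood higher still, with a median signal of 89.9. Of them 54.5% were in the reproducible list and 79.5% had a q-value of at most 0.01. These shares describe the choice of the members and carry no test.

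Most of the shared-promoter peaks were found in each replicate alone, and the signal was usually higher in replicate 2. The signal in replicate 1 ran from 10.5 to 141 with a median of 35.6, and in replicate 2 from 20.5 to 181 with a median of 46.6. Replicate 2 had the higher value at 235 of the 298 members found in both lists, and the other 6 members had no region in replicate 1. It was also higher at 549 of 721 one-gene promoter peaks and at 1490 of 1973 of all the strongest regions found in both lists. The lists were not scaled to each other, so this is not read as a difference in binding. The summit lay inside one of the 2000 strongest regions of replicate 1 for 222 members and of replicate 2 for 258, and of both for 185 (60.9%, 55.1 to 66.4). Over all 2000 regions the share in both was 51.9%, over one-gene promoter peaks 51.0% and over peaks beside small RNA genes 73.4%. The members were chosen on the pooled signal, which was close to the sum of both replicate signals (median ratio 0.995). These shares are therefore partly fixed by the choice and carry no test. The 9 members found among the strongest of neither replicate were divergent, as were 92.8% of all members. Of the 729 one-gene promoter peaks 35 were among the strongest of neither replicate, and of all 2000 regions 94. At the lower end the members just inside rank 2000 were zipt-1/psf-2 with a signal of 55.5, Y116A8C.9/arf-6 with 55.5 and T20F10.2/wts-1 with 55.1, and the first regions of the same kind past it were R05G6.5/vdac-1 with 54.8, rpn-12/rad-23 with 54.6 and gna-1/B0024.13/B0024.11 with 54.6. The signal thus has no step at the boundary.

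**Figure D1:**
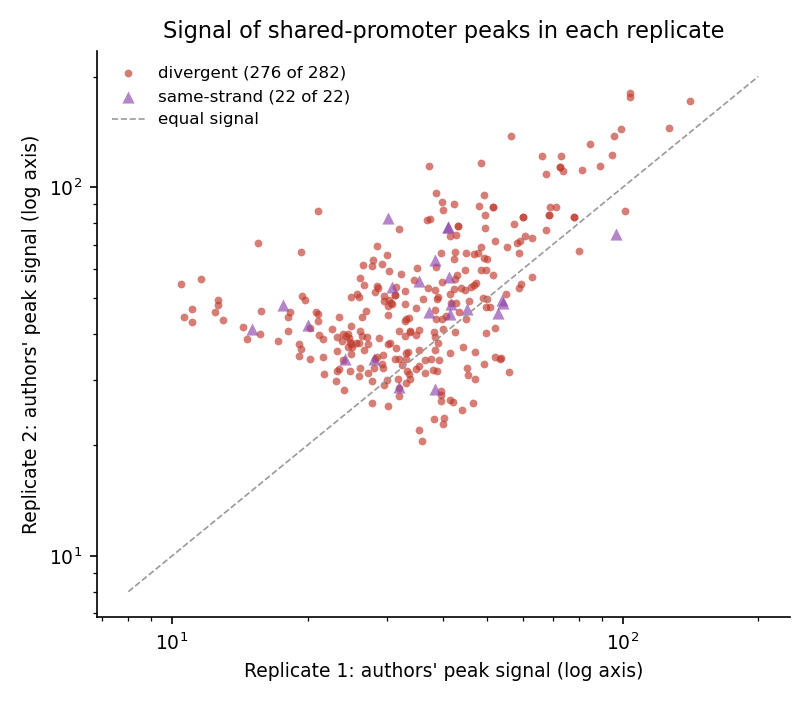
Each point is 1 shared-promoter peak found in both replicates, with the authors' peak signal in replicate 1 on the x axis and in replicate 2 on the y axis, both on log axes. Circles are divergent peaks (276 of 282) and triangles same-strand peaks (22 of 22). At 235 of the 298 peaks the point lies above the dashed line of equal signal.

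The 8 strongest divergent peaks had pooled signals from 217 to 311. The strongest (chrIII:10759094-10759398) lay 60 bp upstream of tasp-1, a homologue of the protease taspase, and 725 bp upstream of K01G5.10, which encodes a haloacid dehalogenase-like protein. Its signal was 141 in replicate 1 and 171 in replicate 2, and it ranked 7 and 11 in those lists. The next (chrI:5807400-5807557) lay between vps-51, which encodes a subunit of a vesicle tethering complex, and lin-35, the worm's retinoblastoma-like gene. Its signal was 104 in replicate 1 and 181 in replicate 2. The peak between Y41D4A.4, a transmembrane 9 family gene, and Y41D4A.6, a subunit of a mitochondrial tRNA amidotransferase, had 104 and 176. The peak of W03C9.5, rab-7 and mex-1 lay in 3 promoters at once and had 127 and 145; rab-7 encodes a GTPase of late endosomes and mex-1 an RNA-binding protein of the early embryo.

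Those after them included the peak between chaf-2, a chromatin assembly factor subunit, and the phosphatase gene Y71G12B.30, with a signal of 99.4 in replicate 1 and 144 in replicate 2. The peak between rpl-15, a protein of the large ribosomal subunit, and K11H12.8 had 95.7 and 138. The peak of ears-2, a mitochondrial glutamyl-tRNA synthetase gene, and uncp-18, which encodes a syntaxin-binding protein, had 94.6 and 123 and was the only one of the 8 with its summit in a UTR. The peak between Y92H12BR.2 and Y92H12BR.3 had 84.6 and 131. All 8 were lower in replicate 1 than in replicate 2, and none of the 8 held TGATAAG within 100 bp of the summit.

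The strongest same-strand peaks were weaker than these. The peak of Y62F5A.12, annotated with a reverse transcriptase domain, and mdt-8, a Mediator subunit (chrII:11534582-11535011), had a pooled signal of 170.3, with 96.8 in replicate 1 and 74.7 in replicate 2. The peak of C26B2.7, a cytochrome c oxidase assembly gene, and elpc-4, an Elongator subunit (chrIV:8015795-8016224), had 120.3, with 40.9 and 78.1. Both belong to the 21 shared-promoter peaks (6.91%) whose window holds a stretch of 30 letters found elsewhere in the genome, against 51 of the 729 one-gene promoter peaks, and reads from such places may be counted at another copy. By class the repeated stretches were in 17 of the 282 divergent and 4 of the 22 same-strand peaks. The part of repeated sequence in the signal of these peaks was not tested.

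Further same-strand peaks lay at pfd-5, a prefoldin chaperone subunit, with exos-9 of the RNA exosome (pooled signal 113), at sec-61.G, a subunit of the protein translocation channel, with F32D8.13 (107), at F10E9.11 with the centriole gene sas-4 (104) and at egl-30, a G protein alpha subunit gene, with C53H9.4 (102). Those of pqn-51/K11D12.14 (98.7) and tub-2/Y71G12A.5 (92.6) completed the first 8. In the annotation unc-60 and F53E2.2, both named by RefSeq as actin-depolymerizing factors, begin at the same base, and their peak lay 331 bp upstream of it.

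Divergent members lay between the starts of their genes. All 282 stood at gene pairs whose nearest starts pointed away from each other, with 12 to 1598 bp between the starts, a median of 514 bp and quartiles of 325 and 793 bp. The summit lay between those starts in 256 of the 282 (90.8%), and in 162 of these 256 it was in the middle, from 25% to 75% of the way. The distance to the nearest start had a median of 151 bp for shared-promoter summits, against 248 bp for one-gene promoter summits. These distances are bounded by the rule itself and carry no test. Among same-strand members the starts were 0 to 891 bp apart with a median of 618 bp, over 500 bp in 14 and under 200 bp in 7 of the 22.

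By annotation 255 of the 304 summits lay between genes, 29 in a UTR, 17 in an intron and 3 in a coding exon. Windows beside small RNA genes were left out of the counts per length. Divergent promoter windows add up to 2.32 Mb of the genome and held 122 members per Mb. Same-strand shared windows held 61.6 per Mb, one-gene promoter windows 31.2 peaks per Mb, and sequence outside promoters 9.81. Of 3209 divergent gene pairs whose promoters overlap, 8.97% had a shared-promoter peak, and of 1118 same-strand pairs 3.67% had one. These 41 same-strand pairs include some inside divergent peaks of 3 or more genes, such as W03C9.5 with rab-7. Peaks with 2 genes numbered 285, with 3 genes 18 and with 4 genes 1. Some promoters held more than 1 member, so that the 304 peaks came from 290 distinct sets of genes (ubc-6/aka-1, atx-2/ecps-1 and C26B2.7/elpc-4, for example), and 13 neighbouring pairs of member regions overlapped.

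**Figure D2:**
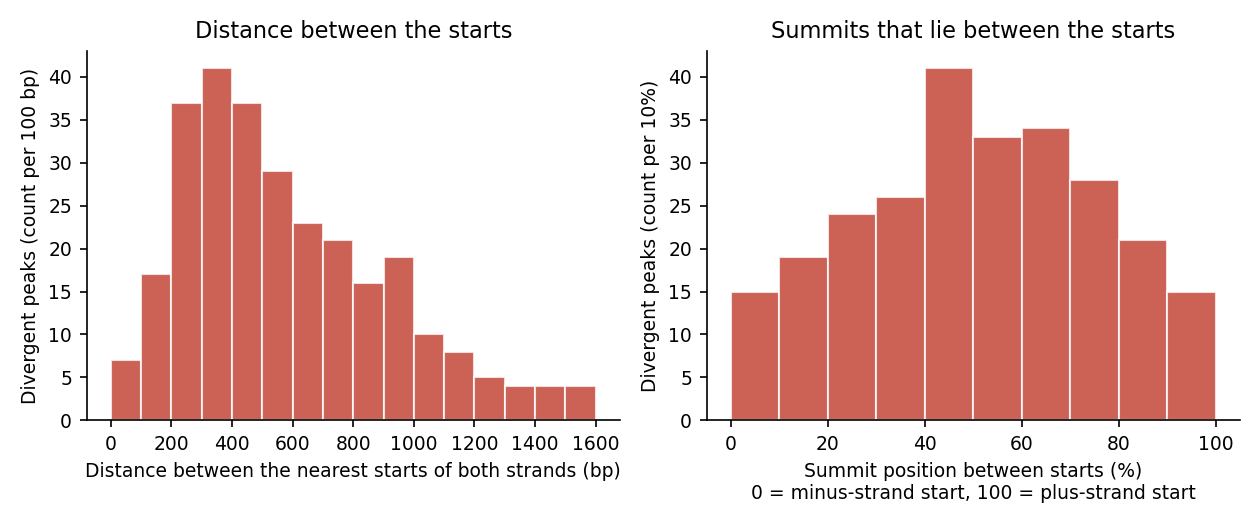
The left panel counts the 282 divergent peaks by the distance in bp between the nearest starts on both strands. The right panel counts the 256 peaks whose summit lies between those starts by the position of the summit in percent from the minus-strand to the plus-strand start, where 162 lie from 25% to 75%.

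Few shared-promoter peaks lay on the X chromosome. It held 10 of the 304 (3.29%, 1.59 to 5.97), against 158 of the 729 one-gene promoter peaks (21.7%, 18.7 to 24.8). The chromosome also holds few shared promoters: 6.42% of the length of shared promoter windows lies on X, against 15.7% of that of one-gene windows. Within X 4.52% of divergent pairs had a member, and on the autosomes 9.27%. The numbers of members on the autosomes were 71 on I, 54 on II, 66 on III, 47 on IV and 56 on V. Among the members on X were the peaks of dnj-14, ucr-2.1, snrp-40.1 and gst-42.

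The comparison of sequence asked whether the peaks of shared promoters carry the patterns found at other PQM-1 peaks. TGATAAG was present within 100 bp of the summit in 15 of the 304 shared-promoter peaks (4.93%, 2.79 to 8.01) and in 119 of the 729 one-gene promoter peaks (16.3%, 13.7 to 19.2), a difference of -11.39 percentage points. The difference passed the test, a two-sided Fisher's exact test adjusted over 10 patterns (adjusted p = 1.4e-06). At shared-promoter summits the share was not distinguishable from that in windows 500 bp to the lower-coordinate side, where 10 of 304 (3.29%) held TGATAAG (two-sided exact McNemar test, adjusted p = 0.71). This difference of 1.64 percentage points was 4.30 without replicate 1, which also missed the threshold (exact McNemar adjusted p = 0.064). One-gene promoter summits held it more often than their flanks, with 16.3% at summits and 4.80% at flanks (exact McNemar adjusted p = 5e-12). For comparison, windows of the same 201 bp held it in 7.11% of all 19973 promoters, in 4.35% of 2737 midpoints of head-to-head gene pairs without a member, in 15.5% of the peaks outside promoters and in 12.5% of all 2000 regions.

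The share of TGATAAG was also lower in shared-promoter peaks inside and below the reproducible list, between genes, near starts and on autosomes. Inside the reproducible list it was 3.57% in shared-promoter peaks and 15.9% in one-gene promoter peaks, and below that list 6.10% and 16.5% in the same order. Among summits between genes it was 4.31% against 15.3% in one-gene promoter peaks, among summits within 250 bp of a start 5.67% against 17.7%, and on autosomes 4.42% against 16.8%. On X 2 of the 10 shared-promoter peaks held it, against 23 of the 158 one-gene promoter peaks, a higher share over few peaks. The difference kept its direction and passed the threshold in all 17 alternatives run, from -12.87 to -6.67 percentage points, with a largest adjusted p of 0.0106 by Fisher's exact test. Among these 17 the reproducible list entered under both of its names, as a list and as a range of ranks. The same letters read in reverse without complement, GAATAGT, were in 3 shared-promoter peaks and 11 one-gene promoter peaks.

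**Figure D3:**
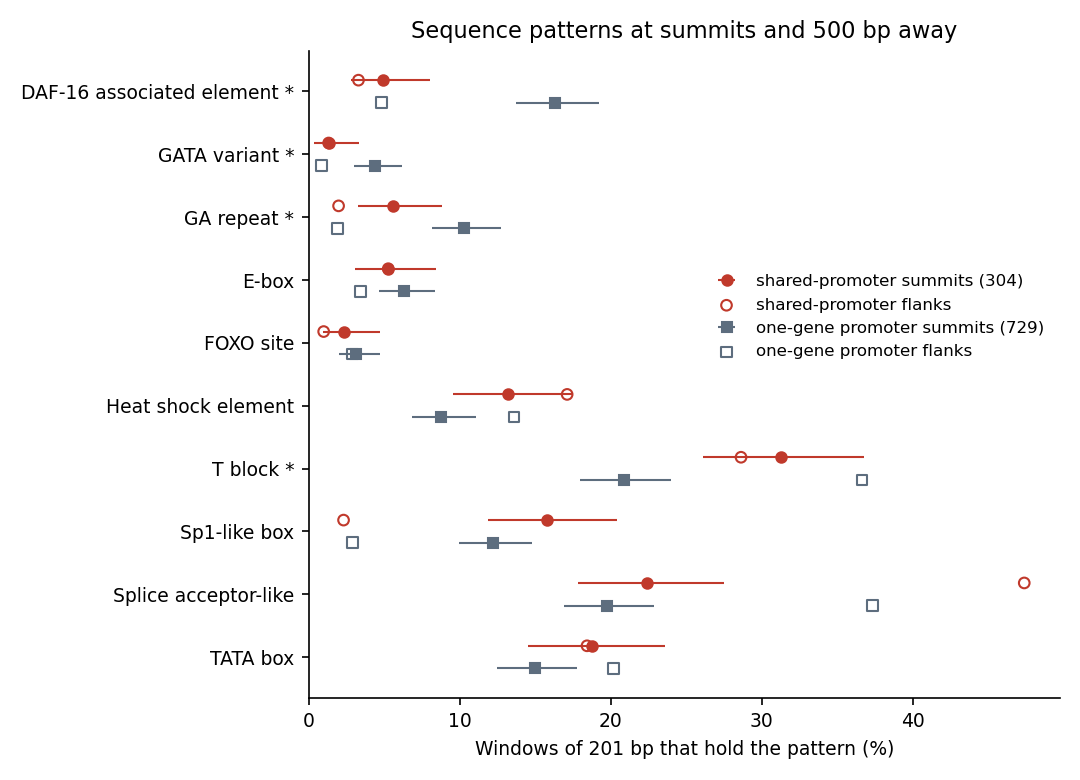
Percentage of 201 bp windows that hold each named pattern, with filled points for summits and open points for windows 500 bp away, circles for the 304 shared-promoter peaks and squares for the 729 one-gene promoter peaks. Bars are exact 95% binomial intervals, and an asterisk marks the 4 patterns whose share differed between the classes of summits. The DAF-16 associated element stands at 4.93% in shared-promoter peaks and 16.3% in one-gene promoter peaks.

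Other patterns separated the classes less. The GATA variant AGATAAG was in 4 shared-promoter peaks (1.32%) and 32 one-gene promoter peaks (4.39%), and the GA repeat GAGAGAGA in 17 (5.59%) and 75 (10.3%), both lower in shared promoters with an adjusted p of 0.041 by Fisher's exact test. By Fisher's exact test neither passed without replicate 2 (adjusted p = 0.089 for each), and AGATAAG also failed without replicate 1 (adjusted p = 0.06). Nor did AGATAAG and GAGAGAGA pass in the reproducible list (Fisher's exact adjusted p = 0.79 and 0.08) or among the 1000 strongest regions (0.17 and 0.103). Within 250 bp of a start they also failed (0.22 and 0.57), while on autosomes alone both passed (0.029 and 0.023). The T block TTTTTTT was in 95 shared-promoter peaks (31.3%) and in 152 one-gene promoter peaks (20.9%), higher in shared promoters (Fisher's exact adjusted p = 0.0028). Of all promoter windows 43.4% held it. Flanks of shared-promoter peaks held it in 28.6% (exact McNemar adjusted p = 0.78) and those of one-gene promoter peaks in 36.6% (3.2e-11). The difference therefore goes with a low share at one-gene promoter summits. Below the reproducible list the T block did not pass (Fisher's exact adjusted p = 0.084). With windows of 50 bp to each side only TGATAAG passed, and with 200 bp to each side 8 of the 10 patterns did.

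The Sp1-like box CCGCCC was enriched at the summits of shared promoters relative to their flanks. It was in 48 of the 304 summit windows (15.8%, 11.9 to 20.4) and in 7 flank windows (2.30%), which passed the exact McNemar test (adjusted p = 2.9e-08). One-gene promoter peaks showed the same, with 12.2% at summits and 2.88% at flanks (exact McNemar adjusted p = 3.2e-11). The difference between the classes of summits did not pass (3.58 percentage points, Fisher's exact adjusted p = 0.196). Peaks outside promoters held it in 10.4% and all 2000 regions in 11.95%. Midpoints of head-to-head pairs without a member held it in 4.13%. In shared-promoter peaks the nearest site had a median distance of 31 bp, and 30 of the 48 peaks had one within 50 bp.

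The only other pattern that differed between shared-promoter summits and flanks was the splice acceptor-like TTTCAG, which was rarer at summits. It was in 68 summit windows (22.4%) and 144 flank windows (47.4%, exact McNemar adjusted p = 1.5e-09). One-gene promoter peaks showed the same, with 19.8% at summits and 37.3% at flanks (exact McNemar adjusted p = 9.5e-13). The difference between the classes of summits did not pass (Fisher's exact adjusted p = 0.44). At the more numerous one-gene promoter summits 9 of the 10 patterns differed from flanks. The flank centres lay in coding exons in 53.6% and in introns in 24.3% of shared-promoter peaks, against 23.5% and 29.6% of one-gene promoter peaks. The part of this gene sequence in the comparison with flanks was not tested. GC content had a median of 41.3% at shared-promoter summits and 38.3% at their flanks, against 43.3% at one-gene promoter summits, and was 33.8% at midpoints of head-to-head pairs without a member. The E-box CACGTG, the FOXO site GTAAACA, the heat shock element TTCNNGAA and the TATA box TATAAA passed neither test; for the heat shock element the share was 13.2% in shared-promoter peaks and 8.78% in one-gene promoter peaks (Fisher's exact adjusted p = 0.081). Of all promoter windows, read like the others on both strands, 3.40% held AGATAAG, 2.74% held GAGAGAGA, 4.22% held CACGTG, 3.48% held GTAAACA, 12.02% held TTCNNGAA, 5.96% held CCGCCC, 37.1% held TTTCAG and 30.5% held TATAAA.

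**Figure D4:**
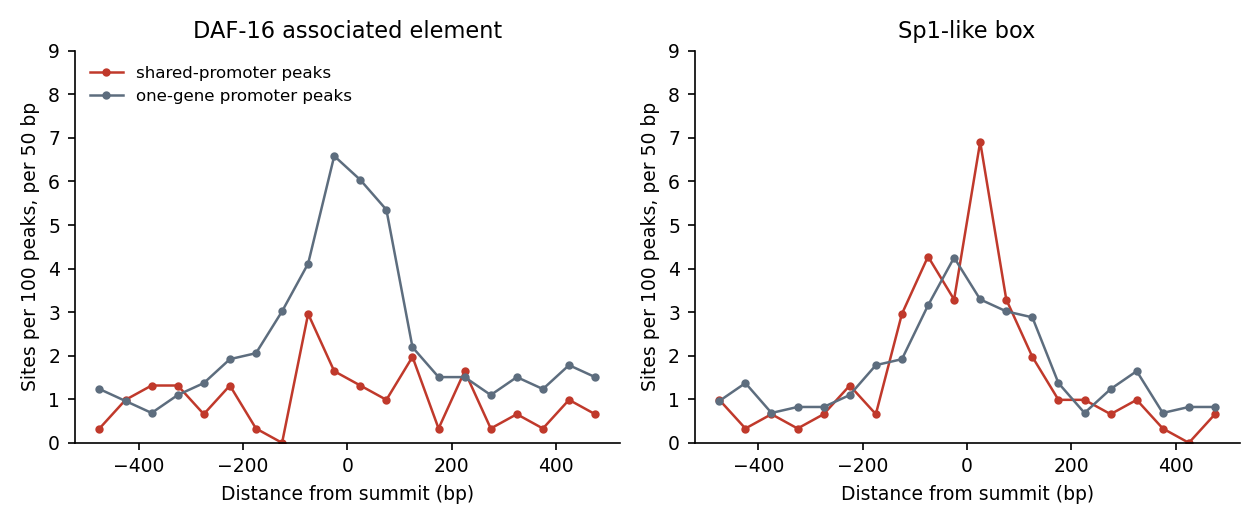
Sites per 100 peaks in bins of 50 bp by distance from the summit in bp, for the DAF-16 associated element on the left and the Sp1-like box on the right, in shared-promoter peaks (red) and one-gene promoter peaks (grey). In the bins from -50 to 0 and from 0 to 50 bp the DAF-16 associated element has 1.64 and 1.32 sites per 100 shared-promoter peaks and 6.58 and 6.04 per 100 one-gene promoter peaks. In the same bins the Sp1-like box has 3.29 and 6.91 sites per 100 shared-promoter peaks and 4.25 and 3.29 per 100 one-gene promoter peaks, so the order of the classes differs between the bins.

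Divergent and same-strand members were not told apart by any of the 10 patterns. By Fisher's exact test 0 passed adjustment and 0 had an unadjusted p under 0.05, with the smallest at 0.115 for the GA repeat, in 14 of 282 divergent peaks (4.96%) and 3 of 22 same-strand peaks (13.6%). TGATAAG was in 14 divergent peaks (4.96%, 2.74 to 8.19) and 1 same-strand peak (4.55%, 0.115 to 22.8). With 22 same-strand peaks the intervals are wide, and such differences were not detectable.

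To look for other shared letters, the 8-letter words most frequent at member summits relative to both flanks were listed, and the first 6 without a stretch of 6 letters in common were kept. As they were chosen on the members, they were tested in weaker regions, all past the authors' reproducible list of 669 regions. The first shared-promoter region past rank 2000 had a q-value of 0.034. The regions tested were ranked from 2001 to 4000 and share no gene with a promoter peak of the first 2000: 142 shared-promoter and 588 one-gene promoter regions. In these AAGTGCGC was in 8 shared-promoter regions (5.63%) and 7 one-gene promoter regions (1.19%), GCGCTCCA in 8 (5.63%) and 10 (1.70%), CTAGGCCA in 7 (4.93%) and 10 (1.70%), and AAAATAAA in 26 (18.3%) and 47 (7.99%). These 4 passed Fisher's exact test adjusted over the 12 word tests (adjusted p = 0.013, 0.025, 0.042 and 0.0065, in that order). GAGACGCA and AAACGCGC did not pass against one-gene promoter regions (Fisher's exact adjusted p = 0.85 and 0.13). Against their own flanks 5 words passed the exact McNemar test, all but AAAATAAA, which was in 18.3% of summits and 9.86% of flanks (adjusted p = 0.078); the 5 were in 0 of 142 flank windows, which allows a share of up to 2.11% by the rule of 3 counts. In the members themselves CTAGGCCA was in 28 windows (9.21%), GAGACGCA in 28, AAACGCGC in 25, GCGCTCCA in 25, AAAATAAA in 67 and AAGTGCGC in 22. Of all promoter windows 0.816% held CTAGGCCA, 2.58% GAGACGCA, 1.09% AAACGCGC, 0.916% GCGCTCCA, 17.1% AAAATAAA and 0.836% AAGTGCGC.

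Of the 15 members with TGATAAG, 14 were divergent and 1 was same-strand. The peak between nlt-1, which encodes a lipid transfer protein-like protein, and ZK892.3 had a signal of 57.5 in replicate 1 and 79.8 in replicate 2 and held 3 sites, 64 to 93 bp from the summit. The peak between acl-6, an acyltransferase gene, and F08F3.8 had 42.4 and 56.3, and that between srlf-7 and C42D4.13 had 37.0 and 53.3. The peak between the aspartic protease genes asp-12 and asp-6 had 30.3 and 49.4 and held 2 sites, 9 and 38 bp from the summit.

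The single same-strand member with the element, at trm-2A, a tRNA methyltransferase gene, and adh-5, an alcohol dehydrogenase gene, had 24.2 in replicate 1 and 34.2 in replicate 2, and its window also holds a repeated stretch. Over the 15 peaks there were 20 sites, 10 on each strand, and the distance from summit to nearest site had a median of 35 bp, against 38 bp in one-gene promoter peaks. These 4 divergent peaks and the same-strand peak were all lower in replicate 1 than in replicate 2. Others with lower signal included gst-42, a maleylacetoacetate isomerase gene, with D1053.2 on X, mpk-2, a MAP kinase gene, with C04G6.11, and lgmn-1, a legumain protease gene, with T28H10.2.

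Lists of the cell's basic machinery had more of their genes at shared-promoter peaks than all genes did, and these lists also hold more genes with an overlapping promoter. The peaks touched 598 of 19973 protein-coding genes (2.99%), or 8.29% of the 7211 genes whose promoter window overlaps that of another gene, while one-gene promoter peaks touched 705 genes (3.53%). Each of 19 lists of gene families, taken by symbol, is described by its count beside these shares, with no test, and 119 of the 598 genes were in one of them. Of all their genes, cytosolic ribosomal proteins had the highest share, with 22 of 80 genes (27.5%) at a shared-promoter peak and 6 (7.50%) at a one-gene promoter peak. Of its members 60 of 80 have an overlapping promoter, so the 22 are 36.7% of those that could be shared. On that measure the chaperone list was higher, at 41.2%, and the shares were 27.0% for the respiratory list, 26.3% for RNA polymerase and Mediator, 25.8% for translation, 21.4% for splicing, 17.7% for vesicle traffic and 13.2% for mitochondrial ribosomal proteins. Proteasome subunits at 11.1%, ubiquitin genes at 10.5% and histones at 10% lay near the 8.29% over all genes with an overlapping promoter. The strongest were rpl-15, rpl-20, rpl-12 and rps-23, with 95.7, 49.4, 49.5 and 51.5 in replicate 1 and 138, 95.2, 77.5 and 57.8 in replicate 2. The pair rpl-24.1 and rps-10, proteins of the large and the small subunit, shared 1 divergent peak.

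Of 60 heat shock, J protein and chaperonin genes 14 (23.3%) had a shared-promoter peak, all divergent, and 4 a one-gene promoter peak. Among them were hsp-90, the cytosolic chaperone, with 69.0 in replicate 1 and 88.5 in replicate 2, hsp-60, the mitochondrial chaperonin, with 67.6 and 76.5, and the J protein genes dnj-29 with 60.1 and 83.1 and dnj-28 with 60.8 and 74.0, the last in a window with a repeated stretch. The chaperonin ring genes cct-1, cct-7 and cct-8 and the mitochondrial hsp-6 also had one. Among proteasome subunits 3 of 33 genes (9.09%) had a shared-promoter peak and 2 a one-gene promoter peak; rpn-3, a proteasome lid subunit, shared its peak with hsp-110. For ubiquitin conjugation and removal the counts were 4 of 75 genes (5.33%) and 7, the only list of basic machinery with more genes at one-gene than at shared-promoter peaks.

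In translation and respiration, 8 of 48 translation factor and tRNA synthetase genes (16.7%) had a shared-promoter peak and 1 a one-gene promoter peak. The strongest listed after ears-2 were iff-2, an eIF5A gene, with 55.5 in replicate 1 and 68.9 in replicate 2, mars-1, the methionyl-tRNA synthetase gene, with 43.0 and 78.8, and eef-1G, an elongation factor gene, with 47.8 and 66.4. The list holds symbols of one form only and leaves out other translation factor genes at member peaks, among them eif-3.E, with 38.5 in replicate 1 and 96.6 in replicate 2, and eef-1A.1, with 59.4 and 54.8. For the respiratory chain and ATP synthase the counts were 10 of 50 (20%) and 5. They include cox-6B, ucr-2.1 and atp-1, but also lpd-2 and lpd-7, which the name pattern catches though lpd-2 encodes a C/EBP-like transcription factor and lpd-7 a pescadillo homologue of ribosome assembly. The same pattern leaves out genes of complex I, among them ndua-2, which shares the peak of dnj-29, and nduc-2, which shares that of cox-6B. Mitochondrial ribosomal proteins had 5 of 66 (7.58%) and 4, with mrps-35 and mrpl-18 the strongest.

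Of 56 splicing and snRNP genes 9 (16.1%) had a shared-promoter peak and 1 a one-gene promoter peak. The splicing factor gene prp-19 had 73.1 in replicate 1 and 122 in replicate 2, in a window with a repeated stretch. The Sm protein gene snr-1 had 67.7 and 109. Of 64 genes of RNA polymerase, Mediator and general transcription factors the counts were 10 (15.6%) and 1, and 4 of the 10 were at same-strand peaks, those of mdt-8, rpoa-12, rpb-11 and rpac-19. In this list the replicates were far apart for mdt-18, with 15.5 in replicate 1 and 70.7 in replicate 2, and for rpac-19, with 15.02 and 41.3. The peaks of mdt-19 and mdt-6 had no region in replicate 1. The same held in other lists. There dnj-11 had 12.7 and 49.4 and atp-3 had 11.1 and 46.8, while tars-1 was higher in replicate 1, with 35.9 and 20.5. The peaks of rpl-33, mrpl-45 and his-59/his-60 had no region in replicate 1. Vesicle traffic genes had 11 of 109 (10.1%) and 7, the strongest being vps-51, rab-7, snx-13 and rab-18. Of 81 histone genes 7 (8.64%) had a shared-promoter peak in 4 peaks and 2 a one-gene promoter peak, and histone genes are near-identical copies between which reads could be split. In 15 members at least 2 listed genes shared the peak, such as snx-13 with snr-1, rsp-2 with rsp-1 and rpl-7 with rab-11.1.

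Lists of regulatory, secreted and sensory genes had few genes at shared-promoter peaks, and some of these lists also hold few genes with an overlapping promoter. Nuclear hormone receptors had 3 of 274 (1.09%), those of nhr-142, nhr-68 and nhr-47, and 20 (7.30%) had a one-gene promoter peak. The share of these receptors with an overlapping promoter is low, 51 of 274, and the 3 are 5.88% of them. For homeobox genes the share is 7.69% of the 13 that could be shared, near the 8.29% over all such genes, while it is 5% for collagens, 2.70% for glutathione transferases and cytochrome P450 genes, 2.15% for C-type lectins and 1.87% for chemoreceptors. Homeobox genes had 1 of 63 (ceh-38) and 3, C-type lectins 2 of 240 and 5, glutathione transferases and cytochrome P450 genes 1 of 121 (gst-42) and 3, and collagens 3 of 194 and 3. Chemoreceptor families had 6 of 1299 (0.462%) and 3, ion channels and neurotransmitter receptors 0 of 215 and 4, and insulin-like peptides 0 of 39 and 1. Only 32 of the channel and receptor genes and 10 of the insulin-like genes have an overlapping promoter, so the counts of 0 say little. Of the listed genes at a shared-promoter peak, gst-42 and str-39 alone had TGATAAG in the summit window. The gene of the factor itself, pqm-1, had no pooled region in its promoter, and daf-16 had 4, of which the strongest ranked 3372 with a signal of 45.9. That rank lies past the 669 reproducible regions, in a list that also holds background.

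**Figure D5:**
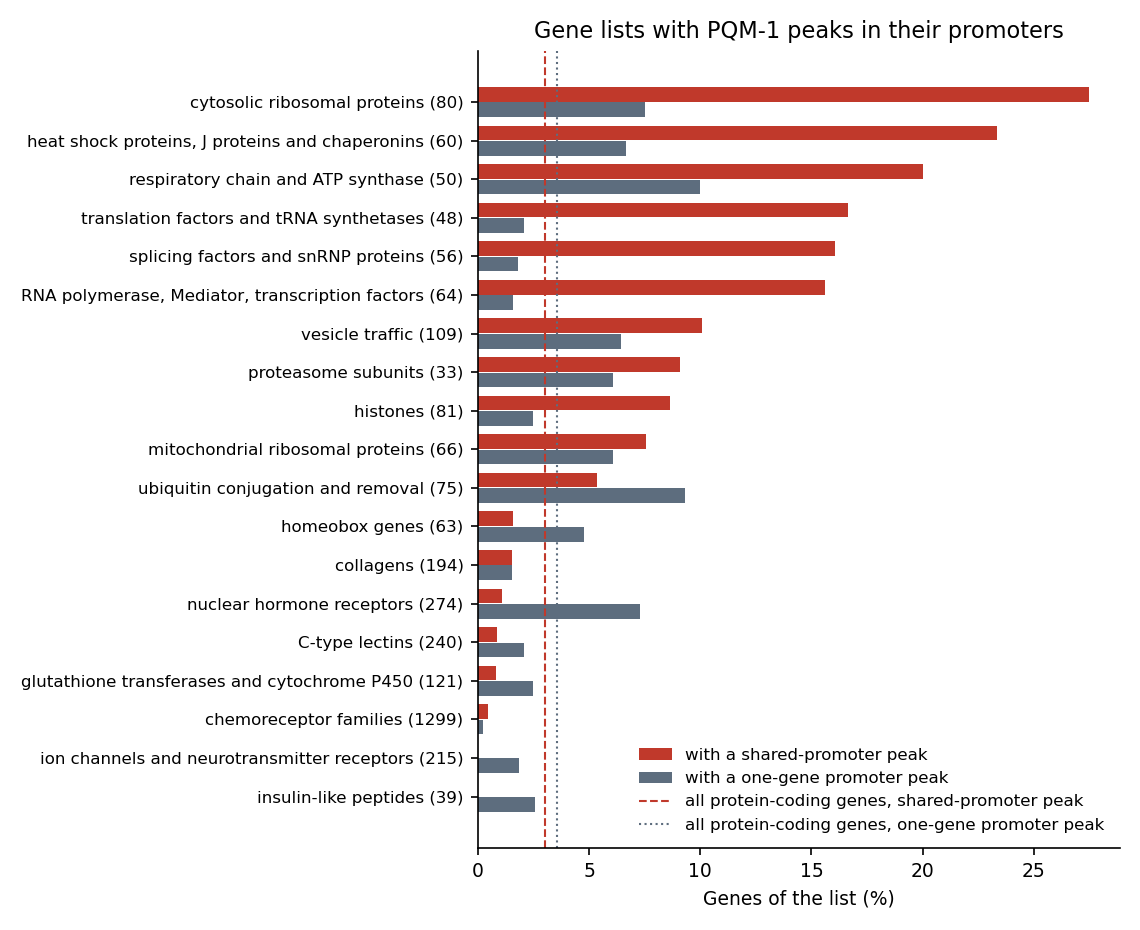
Percentage of the genes of each list with a shared-promoter peak (red bars) and with a one-gene promoter peak (grey bars), with the number of genes of the list in parentheses. The dashed and dotted lines give the same for all protein-coding genes, 2.99% and 3.53%. Cytosolic ribosomal protein genes reach 27.5% with a shared-promoter peak, and nuclear hormone receptor genes 1.09%.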

How the data were processed

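Binding of GFP-tagged PQM-1 was measured in 2 samples of 1 group. The authors deposited peak lists called on each replicate and on the pooled replicates, and a reproducible list obtained by irreproducible discovery rate, as the names of the lists and their README say. For the aligner, the peak caller and the thresholds, the sources used here give no name or value. Column 7 of the deposited lists is the authors' peak signal, column 9 their −log10 q-value and column 10 the summit offset in bp. Since the deposited lists hold no reads per region, depth is unknown. The lists in ce10 were not used, and no coordinates were converted.

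The pooled ce11 list holds 27694 regions, that of replicate 1 28996 and that of replicate 2 23228. The pooled list is named as peaks and background, so a region in it need not be a called peak. Transcript starts came from Ensembl release 115 (WBcel235, which is ce11) and sequence and product names from RefSeq. The rule was read as naming, among the 2000 strongest pooled regions, those that meet its conditions. The members, the gene lists and the patterns were chosen with earlier results of these data known. The lists take genes by the form of their symbol and are not complete. Named genes are those of the 8 strongest divergent and 8 strongest same-strand members, up to 4 per list, those of the 5 strongest members of each class with TGATAAG, those on either side of rank 2000, and pqm-1 and daf-16; other genes named within a list, with a repeated peak or on X were chosen after their values were seen. Of the peaks this rule names, 1 is not reported here.

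Patterns were searched on both strands within 100 bp of the summit. Shares at summits and flanks were compared by exact McNemar tests and shares between classes by Fisher's exact tests, all two-sided, with Benjamini-Hochberg adjustment over 10 patterns and a threshold of 0.05. Overlapping or neighbouring peaks are not independent, and the tests treat peaks as units from 1 pooled experiment. Each 95% interval is a Clopper-Pearson binomial interval of counting error alone. Tests were run with scipy 1.17.1, tables were handled with pandas 2.3.3 and numpy 2.4.6, and figures drawn with matplotlib 3.10.9, all under Python 3.11.15; the scripts were tested on simulated data.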

Additional observations from a re-analysis of the deposited data

How the results depend on the processing

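The number of shared-promoter peaks and the share that was divergent followed the rule: 196 peaks (95.9% divergent) with promoters of 500 bp up and 100 bp down, 478 (85.1%) with 2000 bp up and 500 bp down, 182 among the 1000 strongest regions and 140 in the reproducible list. The share found in both replicates was 90.7% in the 1000 strongest, 94.3% in the reproducible list and 80.6% when a q-value up to 0.01 was required. The 1000 strongest and the reproducible list were themselves chosen with both replicates, so high shares there are partly built in. Between shared-promoter and one-gene promoter peaks, 4 patterns passed as reported, 1 with windows of 50 bp, 8 with windows of 200 bp, 1 below the reproducible list, 2 with the strongest peak per set of genes and 2 within 250 bp of a start. At shared-promoter summits against flanks 2 passed as reported and 4 with flanks at 1000 bp. The cause was not tested, except that fewer peaks enter the smaller sets. No result reversed. Of the single-pattern differences, 91 stayed on their side of the threshold and 25 lost the call, all for the GATA variant, the GA repeat or the T block; the differences for the DAF-16 associated element, the Sp1-like box and the splice acceptor-like pattern kept theirs. The alternatives by autosomes, rank, position, gene set and repeated stretch were chosen after seeing the data. No paired analysis was possible because the series has 1 group. What depth limits could not be assessed without read numbers.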
